A study of Mus musculus with 20 samples.

Results

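The step from postnatal day 5 (P5) to P7 in hippocampal granule cells was followed in 8 of the 20 libraries of a developmental series, 3 from P7 and 5 from P5, across all genes. The libraries were chosen by their labelled age alone. All mice carried the same genotype, Rbp4-Cre with RiboTag, and no untagged or Cre-negative library and no unselected hippocampal RNA was analysed here. RiboTag is an allele of Rpl22, a gene for a protein of the large ribosomal subunit, in which Cre recombination adds an HA epitope, and anti-HA beads then collect the tagged ribosomes from a hippocampal lysate. The cells seen are therefore those in which the Rbp4-Cre transgene had been active, and what was counted is poly-adenylated RNA that came down with the beads. The labels give 3 batches, 2 of which matter here. The 3 P7 libraries and 2 P5 libraries (replicates 1 and 3 of a second P5 series) carry one batch name, called batch B here, and the other 3 P5 libraries carry another, batch A, together with all libraries of P10 and P15. Whether libraries stand for separate animals or pools, and whether same-numbered P5 libraries of the 2 series share a lysate, is not in the labels. The p-values therefore measure the spread between these samples, which may be technical.

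Dentate granule cells are the principal neurons of the dentate gyrus, receive entorhinal input on their dendrites and send mossy fibers to hilar mossy cells and CA3. In rodents most of them are born around and after birth, and in the first postnatal weeks they leave the newborn state, marked by doublecortin and polysialylated NCAM, extend axon and dendrites and receive their first spines and synapses. Spines and axons are built on an actin cytoskeleton in which spectrins, ankyrins, myosins and actinins link filaments to one another and to the membrane.

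Levels are given in CPM, counts relative to the library's total, after scaling with trimmed-mean (TMM) factors. Total counts at P5 were 15.9 M in each library of batch A and 19.9 and 20.7 M in batch B, and at P7 they were 21.8 to 24.9 M. At these depths 3 counts correspond to 0.12 to 0.189 CPM, below which a level cannot be told from 0 (counting error only). The granule cell markers Prox1 (550.2, 571 and 522 CPM at P5 in batch A, 515 and 579 in batch B and 561, 409.9 and 469 at P7) and Calb1 (620.4, 626 and 602 CPM at P5 in batch A, 580.4 and 585 in batch B and 650.1, 477 and 574 at P7) were present in all 8 libraries. On the first principal component of the 8 libraries (42.5% of the variance), P5 libraries lay, in batch A, at -29.4 to -26.0 and, in batch B, at 0.035 and 0.412, and the P7 libraries at 34.3, 30.2 and 17.0, so that batch and age lie along the same axis. P7 replicate 3 also stood apart on the second component, at 26.2 (17.7% of the variance), and held more of 7 nuclear long noncoding RNAs, Malat1 and Meg3 among them, with 3725 CPM in all against 1086 to 2040 in the other 7 libraries. Xist and the Y-linked gene Ddx3y were both counted in each of the 8 libraries, with Xist lowest in P7 replicate 2 (7.59 CPM).

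From P5 to P7, 17 of 34 genes of the immature neuron fell, and 25 of 44 genes of the postsynaptic density rose. All 5 spectrin genes tested, chosen after their values were seen, rose too. With a batch term in the model, 1698 of 15373 genes tested changed at an adjusted p under 0.05 (11.0%), of which 946 (6.15%) were higher and 752 (4.89%) lower at P7. Most changes were small. The median log2 change was 0.43 among the higher and -0.32 among the lower genes, and 136 genes (0.885%) changed at least 2-fold, 115 of them upward and 21 downward. In 3394 genes (22.1% of those tested) the 3 P7 libraries did not overlap with any of the 5 P5 libraries, and 1439 of the 1698 called genes (84.7%) were among these. Because of the batch term, the estimate in effect sets P7 against P5 replicates 1 and 3 of batch B. In those 2 and the 3 P7 libraries alone, 621 of 15005 genes passed (4.14%; 361 higher and 260 lower), 583 of them also called with all libraries. All 1697 called genes measured there had the same direction. That follows from the model and adds no support, since both fits set the 3 P7 libraries against the same 2 P5 libraries. With replicate 1 of these left out 518 genes passed, and with replicate 3 left out 1020.

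The split between higher and lower genes depended on the scaling. Relative to total counts instead of TMM factors, 545 genes were higher and 2490 lower (18.0% of calls higher, against 55.7%). The median log2 change of all genes was then -0.099 in place of 0.0079. With offsets for GC content and transcript length, added after the data were seen, 644 were higher and 954 lower (40.3%). Higher genes had longer transcripts (median 4341 nt) and more GC (52.8%) than lower genes (3790 nt, 48.0%), against 3387 nt and 49.7% over all genes tested. The direction of each change below is relative to the median gene. For most gene lists 2 further counts of risers and fallers stand in parentheses, those relative to total counts and those of the 5 libraries of batch B alone.

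**Figure D1:**
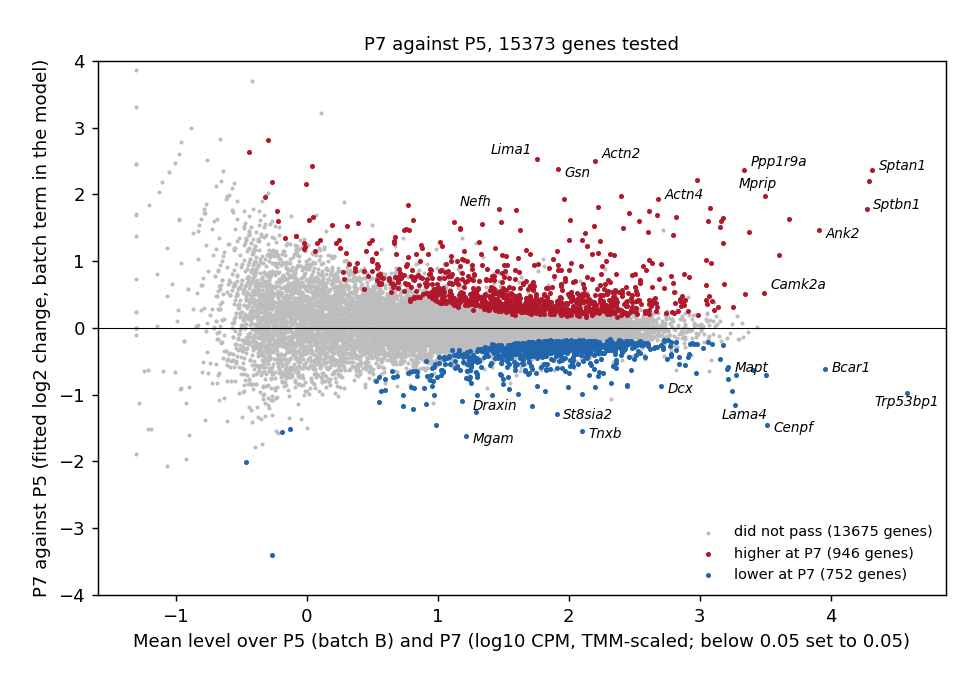
Change from P5 to P7 against mean level for the 15373 genes tested, with the fitted log2 change on the vertical axis and the mean CPM of the P5 libraries of batch B and the P7 libraries on a log10 axis. The 946 red genes were higher and the 752 blue genes lower at P7, and at high levels the spectrin genes Sptan1 and Sptbn1 stand opposite Trp53bp1, Cenpf and Lama4.

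By the rule for named genes (adjusted p under 0.05, at least 5 CPM, no overlap between P7 and P5), the 12 genes that rose by the largest factor included Lima1, Actn2, Gsn, Ppp1r9a, Sptan1, Sptb, Mprip, Fbxo34, Actn4, Myh14 and Myh11. Sptan1 (chromosome 2, 29965560 to 30031451, plus strand), which encodes alpha-II spectrin, the partner of all neuronal beta spectrins, was at 1730.5, 1575 and 1947 CPM at P5 in batch A, 7269 and 6254 in batch B and 39234, 39134 and 25712 at P7. P7 libraries were all above P5, the 2 batches of P5 did not overlap either, and P7 replicate 3 was the lowest at P7 (log2 change 2.36 ± 0.34 SE, adjusted p = 0.00066). Sptb, the erythroid beta spectrin that neurons also make, was at 119, 117 and 124 CPM at P5 in batch A, 373 and 309 in batch B and 1724, 1779 and 1235 at P7 (log2 change 2.21 ± 0.28 SE, adjusted p = 0.00025). Sptbn1 rose by 1.78 and Sptbn4, the beta spectrin of the axon initial segment, by 1.60 on the log2 scale. All 5 spectrin genes tested were called, beside 6.15% higher over all genes, and the family was chosen after its values were seen. Their summed level was 0.541 to 0.675% of scaled counts at P5 in batch A, 2.13 to 2.51% in batch B and 8.32 to 11.0% at P7.

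Several genes for proteins that bind or cross-link actin rose too. Lima1 (chromosome 15, 99778470 to 99875456, minus strand), which encodes an actin-bundling LIM protein (EPLIN), was at 10.9, 9.60 and 11.7 CPM at P5 in batch A, 20.5 and 13.7 in batch B and 118, 109 and 68.9 at P7. By the rule its P7 levels lay above all 5 P5 levels, with P7 replicate 3 again lowest (log2 change 2.53 ± 0.40 SE, adjusted p = 0.0014). Actn2, an alpha-actinin of dendritic spines, was at 20.7, 21.3 and 22.7 CPM at P5 in batch A, 56.7 and 39.6 in batch B and 335, 281 and 199 at P7 (log2 change 2.50 ± 0.36 SE, adjusted p = 0.00069). Actn4 and Actn1 rose by 1.94 and 1.42, while Actn3 did not pass (-0.53 ± 0.29 SE, adjusted p = 0.26). Gsn, for the actin-severing protein gelsolin, was at 11.0, 7.81 and 9.73 CPM at P5 in batch A, 34.5 and 19.0 in batch B and 158, 164 and 97.2 at P7 (log2 change 2.38 ± 0.49 SE, adjusted p = 0.0073). Ppp1r9a, for neurabin, a spine scaffold that binds actin and protein phosphatase 1, was at 188, 193 and 253 CPM at P5 in batch A, 928 and 495 in batch B and 4174, 4049 and 2811 at P7 (log2 change 2.37 ± 0.40 SE, adjusted p = 0.0021). Mprip, which ties myosin phosphatase to actin, was at 430.0, 369.7 and 437 CPM at P5 in batch A, 1512 and 1031 in batch B and 5364, 5257 and 4343 at P7 (log2 change 1.97 ± 0.30 SE, adjusted p = 0.00094). Between the P5 batches Ppp1r9a and Mprip passed (1.75, adjusted p = 0.0079 and 1.62, adjusted p = 0.0022), and Lima1, Gsn and Actn2 did not (adjusted p = 0.38, 0.1 and 0.059).

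Motor proteins of the same system changed with them. The families here were chosen after their values were seen, and over all genes 6.15% were higher and 4.89% lower. All 4 myosin II heavy chains tested were called: Myh14 was at 14.3, 12.0 and 14.9 CPM at P5 in batch A, 44.4 and 32.4 in batch B and 161, 161 and 116 at P7 (log2 change 1.92 ± 0.31 SE, adjusted p = 0.0015), and Myh11, Myh9 and Myh10 rose by 1.84, 1.72 and 1.51. Of 20 unconventional myosins tested 8 rose and none fell, among them Myo6 (log2 change 1.53 ± 0.30 SE, adjusted p = 0.0057) and Myo5a (log2 change 1.28 ± 0.22 SE, adjusted p = 0.0025), the motor that carries cargo into spines. Ank2 and Ank3, the ankyrins of axon shaft and initial segment, rose by 1.46 and 0.65, whereas Ank1 did not pass (0.015 ± 0.16 SE, adjusted p = 0.97). Dbn1, for drebrin, the actin-binding protein of young spines, was at 1004, 792 and 958 CPM at P5 in batch A, 2845 and 1882 in batch B and 7115, 7750.5 and 7133 at P7 (log2 change 1.63 ± 0.27 SE, adjusted p = 0.0017). None of 4 actin genes rose. Actg1 was called lower (log2 change -0.34 ± 0.063 SE, adjusted p = 0.0011), though not inside batch B alone (adjusted p = 0.063). Its P7 levels (570 to 597 CPM) overlapped with those of P5 in batch A (589 to 617 CPM). Actb did not pass (-0.16 ± 0.065 SE, adjusted p = 0.11). None of 4 tropomyosins and none of 3 ezrin, radixin and moesin genes passed, and of 7 adducin and protein 4.1 genes 1 rose and 1 fell.

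Spectrin levels moved with batch as well as age. Sptan1 was higher in the P5 libraries of batch B than in those of batch A (log2 difference 1.95, adjusted p = 0.0014), in the same direction as at P7. At P10, in batch A, the spectrin sum was 26418 CPM on average, above P5 of both batches and below all 3 P7 libraries (83157 to 109904 CPM). With the spectrin level of each library (mean log2 CPM of Sptan1 and Sptbn1) as a covariate, an alternative added after the data were seen, edgeR called 0 genes (675 at an unadjusted p under 0.05; no other tool was run with it). In batch B every P7 library had more spectrin than both P5 libraries, so that spectrin level and age cannot be told apart there.

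**Figure D2:**
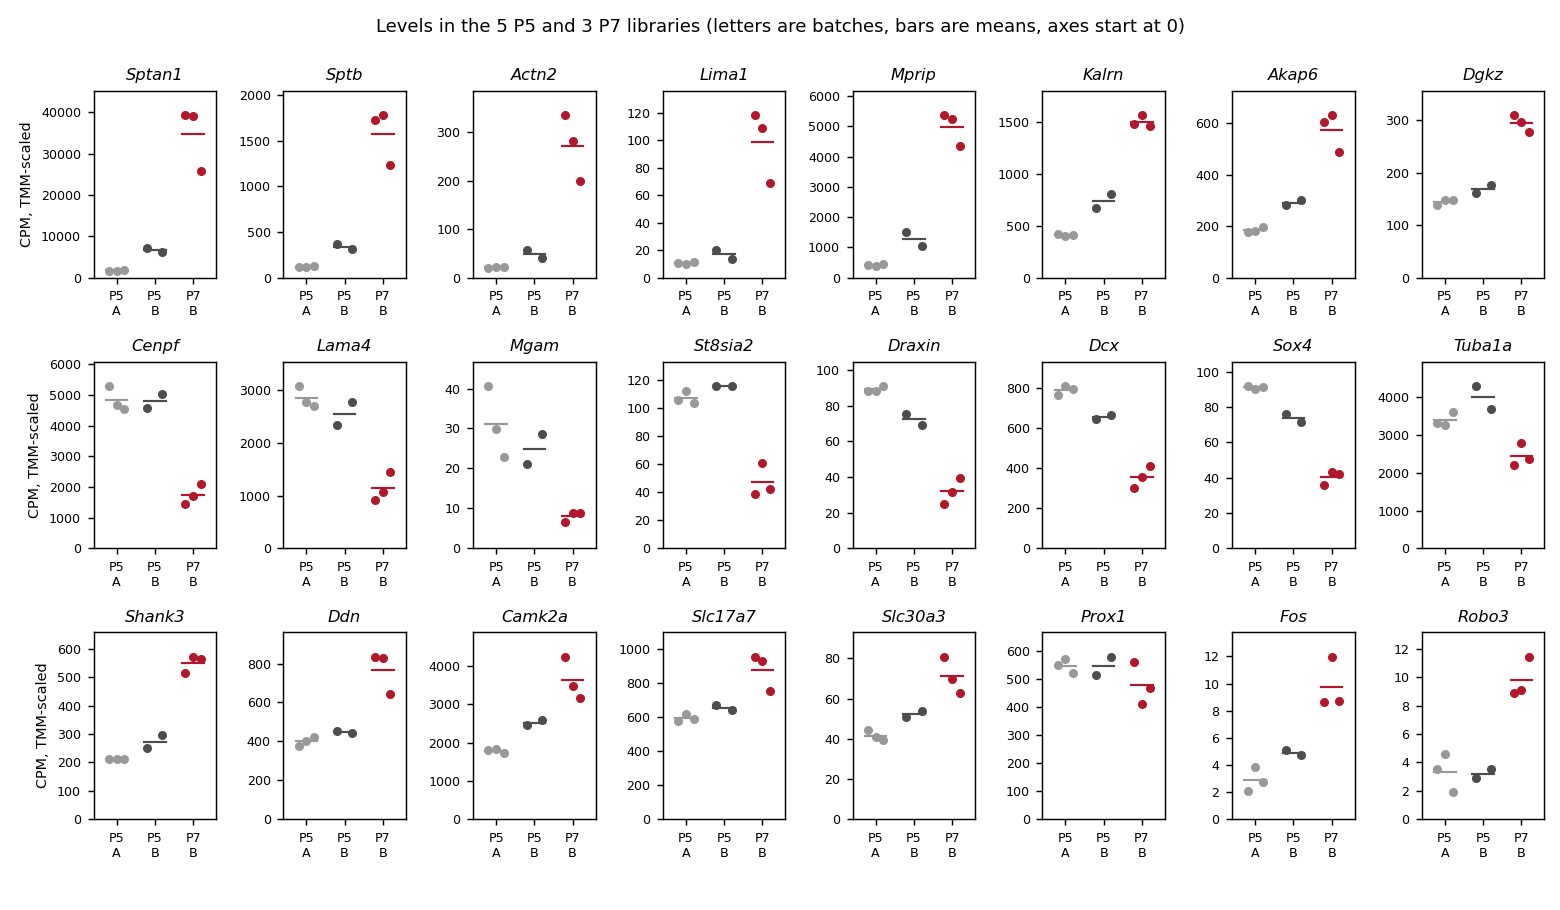
Levels of 24 genes in the 8 libraries, in CPM on axes that start at 0, with P5 split by batch and bars at the means. Sptan1, Lima1 and Mprip were low in batch A, higher in the P5 libraries of batch B and higher again at P7. For Lima1 the difference between the P5 batches did not pass. Cenpf, St8sia2 and Lama4 had like levels in both P5 batches and were lower in all 3 P7 libraries.

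Genes that fell by the largest factor came from several pathways. Under the same rule the 12 lowest were Mgam, Tnxb, Tes, Cenpf, St8sia2, Gpc2, B3gnt5, Draxin, Fblim1, Lama4, Atp10b and Smtnl2. Mgam (chromosome 6, 40628831 to 40769123, plus strand), for the brush-border enzyme maltase-glucoamylase, was at 40.6, 29.9 and 22.8 CPM at P5 in batch A, 21.2 and 28.7 in batch B and 6.62, 8.88 and 8.79 at P7 (log2 change -1.62 ± 0.30 SE, adjusted p = 0.0024). St8sia2, the sialyltransferase that builds polysialic acid on NCAM in young neurons, was at 105, 112 and 104 CPM at P5 in batch A, 116 and 115 in batch B and 38.6, 60.5 and 42.5 at P7. The P5 levels lay close together and P7 was below them (log2 change -1.29 ± 0.17 SE, adjusted p = 0.00015). Draxin, a secreted ligand of DCC and netrin, was at 88.4, 88.2 and 91.0 CPM at P5 in batch A, 75.5 and 69.3 in batch B and 24.7, 31.6 and 39.7 at P7 (log2 change -1.18 ± 0.14 SE, adjusted p = 4.1e-05). Gpc2, a glypican of growing axons, fell by 1.26 and B3gnt5, which starts lacto-series glycolipids, by 1.22 on the log2 scale. Tes and Fblim1, LIM-domain proteins of focal adhesions, changed by -1.46 and -1.17.

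A set of genes with very high counts at P5 fell as well. Trp53bp1, for the DNA repair protein 53BP1, took 4.81 to 5.95% of all counts in the P5 libraries and 2.11 to 2.79% at P7 (log2 change -0.97 ± 0.15 SE, adjusted p = 0.00044), and was chosen after its values were seen. Cenpf (chromosome 1, 189640606 to 189688086, minus strand), a kinetochore protein, was at 5296, 4684 and 4562 CPM at P5 in batch A, 4572 and 5032 in batch B and 1444, 1708 and 2102 at P7. Its P5 levels were alike in both batches, and P7 libraries lay below them without overlap, as the naming rule required (log2 change -1.46 ± 0.18 SE, adjusted p = 0.00014). Lama4, a laminin chain of basement membranes, was at 3074, 2780.5 and 2694 CPM at P5 in batch A, 2334 and 2770.0 in batch B and 921, 1063 and 1438 at P7 (log2 change -1.16 ± 0.21 SE, adjusted p = 0.0026). Tnxb, for tenascin X, was at 335, 274 and 252 CPM at P5 in batch A, 144 and 232 in batch B and 45.4, 62.2 and 84.5 at P7 (log2 change -1.55 ± 0.23 SE, adjusted p = 0.0008). The Cas scaffold genes Bcar1, Efs and Nedd9, which assemble signalling complexes at focal adhesions, all fell. They too were chosen after their values were seen. Bcar1 fell by 0.61 and Efs by 0.94 on the log2 scale.

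Apart from size, the most precise changes (smallest p, 8 in each direction) named signalling and growth genes. Among those that rose, Dgkz, for a diacylglycerol kinase of synapses, was at 138, 149 and 148 CPM at P5 in batch A, 162 and 176 in batch B and 309, 297 and 277 at P7 (log2 change 0.80 ± 0.070 SE, adjusted p = 4.3e-07). Akap6, an anchor of protein kinase A at membranes of the nucleus and endoplasmic reticulum, was at 177, 181 and 195 CPM at P5 in batch A, 281 and 303 in batch B and 603, 629.9 and 488 at P7 (log2 change 0.98 ± 0.090 SE, adjusted p = 1.3e-06). Kalrn, the exchange factor kalirin of spines, was at 417, 401 and 414 CPM at P5 in batch A, 673 and 804 in batch B and 1482, 1562 and 1459.7 at P7 (log2 change 1.02 ± 0.10 SE, adjusted p = 2.8e-06). Snph, for syntaphilin, which docks axonal mitochondria, rose by 0.72, and the guanine nucleotide exchange factors Arhgef17 and Mcf2l by 1.00 and 0.71. Plekha6 and Myo18a rose by 0.60 and 0.67. The 8 that fell included Gpr179, Dcx, Jpt1, Lmnb1, Mapt, 4931428F04Rik and Neo1. Gpr179, an orphan receptor known from retinal bipolar cells, was at 88.4, 80.4 and 73.7 CPM at P5 in batch A, 78.8 and 96.5 in batch B and 41.3, 45.2 and 49.5 at P7 (log2 change -0.95 ± 0.10 SE, adjusted p = 2.7e-06). In each of these 16 genes the 3 P7 libraries were on one side of all 5 P5 libraries. The same held for 84.7% of all called genes and 22.1% of all genes tested. Picking the smallest p favours such genes, so this adds no support.

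Of 34 tested markers of the immature neuron 17 fell and 1 rose, with a median log2 change of -0.48 against 0.0079 over all genes and a background of 4.89% lower. Relative to total counts 20 fell and 1 rose, and inside batch B 17 and 1. Dcx (chromosome X, 143855842 to 143933311, minus strand), for doublecortin, a microtubule-binding protein of migrating neurons, was at 769, 812 and 795 CPM at P5 in batch A, 648 and 669 in batch B and 302, 359 and 413 at P7. All 3 P7 libraries lay below all 5 of P5 (log2 change -0.88 ± 0.089 SE, adjusted p = 2.8e-06; inside batch B -0.88, adjusted p = 0.0025). Sox4 and Sox11, transcription factors of newly born neurons, were at 92.0, 90.1 and 91.3 CPM (P5, batch A), 76.2 and 71.8 (P5, batch B) and 35.9, 43.1 and 42.3 (P7) and at 171, 171 and 163 CPM (P5, batch A), 113 and 125 (P5, batch B) and 78.9, 85.3 and 91.6 (P7). They fell by 0.87 and 0.48 on the log2 scale, and Sox11 was also lower in batch B than in batch A at P5 (-0.50, adjusted p = 0.0035). Crmp1, a collapsin response mediator that passes semaphorin signals to the cytoskeleton, was at 1596, 1558 and 1627 CPM at P5 in batch A, 1690.3 and 1609 in batch B and 1138, 1224 and 1203 at P7 (log2 change -0.47 ± 0.062 SE, adjusted p = 2.8e-05). Its relatives Dpysl3 and Dpysl5 changed by -0.70 and -0.55. Ncam1, the carrier of polysialic acid, fell with its sialyltransferase (log2 change -0.42 ± 0.070 SE, adjusted p = 0.0003). Islr2, a surface protein of growing axons, was at 1229, 1114 and 1155 CPM at P5 in batch A, 815 and 827 in batch B and 549, 501 and 635 at P7 (log2 change -0.55 ± 0.084 SE, adjusted p = 0.00014). The 1 member that rose was Dbn1. The summed level of the list, Dbn1 included, was 18391 to 21289 CPM at P5 and 18566 to 21282 at P7.

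Proliferation genes did not fall as a group, and over all genes 6.15% were higher and 4.89% lower. Of 46 cell cycle and replication genes 2 fell (Cenpf, and Rrm2, a subunit of ribonucleotide reductase, -0.63 ± 0.18 SE, adjusted p = 0.025) and 1 rose (Ccne1, for cyclin E1, 0.57 ± 0.14 SE, adjusted p = 0.0072), with a median of -0.082. Mki67, for the proliferation antigen Ki-67, was at 73.9, 50.5 and 56.7 CPM at P5 in batch A, 25.9 and 51.4 in batch B and 31.7, 28.2 and 41.9 at P7, with overlapping groups (-0.18 ± 0.30 SE, adjusted p = 0.77). Of 24 stem and progenitor genes 3 fell and none rose (0 and 3 under total counts, 0 and 1 inside batch B), with a median of 0.033 that turned to -0.074 under total counts. These were Fabp7, a fatty acid binding protein of radial glia, at 169, 145 and 151 CPM at P5 in batch A, 94.1 and 104 in batch B and 58.9, 61.0 and 75.6 at P7 (log2 change -0.60 ± 0.11 SE, adjusted p = 0.00085), Id2 (-0.62 ± 0.18 SE, adjusted p = 0.035) and Emx2 (-0.36 ± 0.12 SE, adjusted p = 0.048).

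Among genes by which axons find their way more fell than rose. Of 69 axon guidance genes 2 rose and 15 fell (2 and 27 under total counts, 2 and 9 inside batch B), with a median of -0.19 and 4.89% lower over all genes. The named members are mostly receptors. Neo1, the netrin and RGM receptor neogenin, was at 214, 227 and 260.4 CPM at P5 in batch A, 256 and 265 in batch B and 160.2, 181 and 183 at P7 (log2 change -0.58 ± 0.070 SE, adjusted p = 1.3e-05). The semaphorin co-receptors Nrp2 and Nrp1 were at 346, 309 and 326 CPM (P5, batch A), 259 and 279.9 (P5, batch B) and 184, 189.7 and 204 (P7) and at 109, 108 and 112 CPM (P5, batch A), 100.3 and 108 (P5, batch B) and 74.0, 74.4 and 75.6 (P7). They changed by -0.48 and -0.48, with no overlap between the ages. The Slit receptor Robo1 and the netrin receptor Dcc changed by -0.58 and -0.62. Robo3, a divergent member of the Robo family, rose. It was at 3.51, 4.57 and 1.92 CPM at P5 in batch A, 2.91 and 3.50 in batch B and 8.91, 9.14 and 11.5 at P7 (log2 change 1.62 ± 0.24 SE, adjusted p = 0.0002). The ligand Slit1 rose by 0.37.

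Among adhesion molecules of synapses, too, more fell than rose, beside 6.15% higher and 4.89% lower over all genes. Of 92 tested, 3 rose and 18 fell (3 and 35 under total counts, 1 and 8 inside batch B), with a median of -0.17. Cdh2, for N-cadherin, was at 148, 159.8 and 162 CPM at P5 in batch A, 156 and 149 in batch B and 112, 115 and 111 at P7 (log2 change -0.44 ± 0.067 SE, adjusted p = 0.00014). Cntnap1, for Caspr, which joins axon and glia at the paranode, rose. It was at 20.8, 22.9 and 18.3 CPM at P5 in batch A, 36.5 and 37.6 in batch B and 83.9, 69.0 and 61.6 at P7 (log2 change 0.95 ± 0.11 SE, adjusted p = 1.3e-05). It was also higher in batch B than in batch A at P5 (0.84, adjusted p = 8.3e-05). Adgrb2, an adhesion G protein-coupled receptor (BAI2), rose by 0.31 from P5 levels that were alike in both batches.

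Of 44 tested genes of the postsynaptic density 25 rose and none fell, against a background of 6.15% higher over all genes, with a median of 0.36. Relative to total counts 23 rose and 1 fell, and inside batch B 14 rose. The scaffold gene Shank3 was at 213, 213 and 212 CPM at P5 in batch A, 251 and 296 in batch B and 516, 573 and 564 at P7 (log2 change 1.01 ± 0.12 SE, adjusted p = 7.2e-05). Its paralogs Shank2 and Shank1 rose by 0.96 and 0.80. The difference of Shank3 between the P5 batches did not pass (0.36, adjusted p = 0.067). Ddn, for dendrin, whose mRNA is carried into dendrites, was at 377, 400.3 and 422 CPM at P5 in batch A, 454 and 443 in batch B and 835, 827 and 642 at P7 (log2 change 0.78 ± 0.10 SE, adjusted p = 4.1e-05). Icam5, for telencephalin of dendritic filopodia, was at 258, 250.0 and 254 CPM at P5 in batch A, 285 and 267 in batch B and 425, 393 and 361 at P7 (log2 change 0.51 ± 0.063 SE, adjusted p = 1.5e-05). Iqsec2, an exchange factor for Arf6 at excitatory synapses, rose by 0.55. Dlg4, for PSD-95, was at 786, 785 and 805 CPM at P5 in batch A, 909 and 896 in batch B and 1107, 1054 and 937 at P7 (log2 change 0.19 ± 0.061 SE, adjusted p = 0.039), a change that did not pass relative to total counts (0.083, adjusted p = 0.23). Camk2a, for the alpha subunit of CaM kinase II, was at 1804, 1826 and 1714 CPM at P5 in batch A, 2448 and 2594 in batch B and 4246, 3469 and 3167 at P7 (log2 change 0.52 ± 0.087 SE, adjusted p = 0.0003). At P5, 18 of the 44 genes were higher in batch B than in batch A and none lower, beside 10.1% of all genes that differed between those batches.

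Presynaptic genes rose less uniformly, beside 6.15% higher and 4.89% lower over all genes. Of 62 tested 17 rose and 2 fell (10 and 7 under total counts, 5 and 3 inside batch B), with a median of 0.13. Slc17a7, the vesicular glutamate transporter VGLUT1, was at 578, 617 and 593 CPM at P5 in batch A, 672 and 642 in batch B and 957, 930.1 and 753 at P7 (log2 change 0.42 ± 0.076 SE, adjusted p = 0.00075). Ppfia4, a liprin of the active zone, and Vamp1, for synaptobrevin-1, rose by 0.43 and 0.73. Syt7, a calcium sensor of asynchronous release and facilitation, was at 169, 171 and 176 CPM at P5 in batch A, 187 and 210.1 in batch B and 272, 264 and 239 at P7 (log2 change 0.38 ± 0.064 SE, adjusted p = 0.00038). The priming factor Unc13b fell. It was at 275, 243 and 208 CPM at P5 in batch A, 186 and 229 in batch B and 109.9, 128 and 139 at P7 (log2 change -0.72 ± 0.11 SE, adjusted p = 0.00018). Its paralog Unc13a rose by 0.23, and Dnm3, for dynamin-3, changed by -0.44. Slc17a6, for VGLUT2, did not pass (-0.18 ± 0.22 SE, adjusted p = 0.67), nor did the release sensor Syt1 (0.13 ± 0.15 SE, adjusted p = 0.66).

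Receptor subunits changed in both directions. Of 38 glutamate receptor and auxiliary genes 6 rose and 4 fell (3 and 11 under total counts, 1 and 1 inside batch B), with a median of -0.017, beside 11.0% called over all genes. Grin2a, the NMDA receptor subunit that joins synapses as they mature, was at 47.0, 61.0 and 50.4 CPM at P5 in batch A, 68.3 and 74.7 in batch B and 124, 111 and 82.1 at P7 (log2 change 0.56 ± 0.13 SE, adjusted p = 0.008). Its juvenile counterpart Grin2b was at 611, 739.9 and 684 CPM at P5 in batch A, 811 and 893 in batch B and 756, 760.0 and 588 at P7 and did not pass (-0.28 ± 0.092 SE, adjusted p = 0.051), nor did Grin1 (0.17 ± 0.063 SE, adjusted p = 0.091). For AMPA receptors Gria2 passed (0.21 ± 0.059 SE, adjusted p = 0.023), though not relative to total counts (adjusted p = 0.27), and Gria1 did not (0.027 ± 0.070 SE, adjusted p = 0.86; -0.081 under total counts). Grik5, for a kainate receptor subunit, rose by 0.24 (adjusted p = 0.067 under total counts) and Grik3 changed by -0.32. Grm2, a presynaptic metabotropic receptor of mossy fibers, was at 91.9, 97.5 and 91.6 CPM at P5 in batch A, 129.5 and 130.2 in batch B and 196, 164 and 143 at P7 (log2 change 0.37 ± 0.091 SE, adjusted p = 0.0098).

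On the inhibitory side 3 of 23 genes of GABA receptors and chloride transport rose and none fell, with a median of -0.0076. Over all genes 6.15% were higher and 4.89% lower. Risers and fallers of the list were 2 and 2 under total counts and 0 and 0 inside batch B. Gabrd, the delta subunit of tonic inhibition in granule cells, was at 11.5, 13.3 and 11.9 CPM at P5 in batch A, 17.5 and 15.8 in batch B and 28.6, 22.2 and 19.8 at P7 (log2 change 0.50 ± 0.11 SE, adjusted p = 0.0036). Gabra4 rose by 0.22, a call lost under total counts (adjusted p = 0.28). The alpha subunits Gabra2 and Gabra5 did not pass (log2 changes 0.067, turning to -0.038 under total counts, and -0.18). Slc12a5, for the chloride exporter KCC2, was at 261, 274 and 276 CPM at P5 in batch A, 343 and 349 in batch B and 422, 411 and 343 at P7 and did not pass (0.18 ± 0.070 SE, adjusted p = 0.1). Its P5 levels differed between batches (0.36, adjusted p = 0.0017). The importer Slc12a2 (NKCC1) did not pass either (-0.0076 ± 0.094 SE, adjusted p = 0.98).

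Of 67 voltage-gated channel genes 12 rose and 1 fell (5 and 5 under total counts, 2 and 0 inside batch B). Over all genes 6.15% were higher and 4.89% lower. The list's median of 0.055 turned to -0.055 under total counts. Kcnc2, a Kv3 potassium channel of fast firing, was at 10.4, 15.4 and 9.84 CPM at P5 in batch A, 8.17 and 10.7 in batch B and 16.0, 15.9 and 17.6 at P7 (log2 change 0.81 ± 0.17 SE, adjusted p = 0.0028), although its highest P5 level, 15.4 CPM, came close to P7. Kcns2 and Kcnh1 rose by 0.43 and 0.45. In the activity-regulated list 10 of 42 rose and 1 fell (8 and 2 under total counts, 4 and 1 inside batch B), with a median of 0.22. The AP-1 factors Fosb and Fos, transcribed within minutes of neuronal activity, were at 0.806, 1.79 and 1.11 CPM (P5, batch A), 2.44 and 3.06 (P5, batch B) and 6.22, 5.10 and 8.50 (P7) and at 2.07, 3.82 and 2.74 CPM (P5, batch A), 5.11 and 4.69 (P5, batch B) and 8.66, 12.0 and 8.70 (P7). They rose by 1.27 (adjusted p = 0.00088) and 1.00 (adjusted p = 0.02), at low levels. Nr4a1, an orphan nuclear receptor of the same class of early genes, was at 11.2, 11.3 and 11.1 CPM at P5 in batch A, 12.7 and 15.1 in batch B and 23.7, 22.1 and 26.2 at P7 (log2 change 0.79 ± 0.16 SE, adjusted p = 0.0029). Egr1 reached 91.5, 84.9 and 59.5 CPM at P7, so that P7 replicate 3 did not exceed the higher P5 library of batch B (log2 change 0.41 ± 0.12 SE, adjusted p = 0.032). Ptgs2 and Arl4d rose by 1.37 and 0.76, and Bdnf did not pass (0.21 ± 0.082 SE, adjusted p = 0.1).

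**Figure D3:**
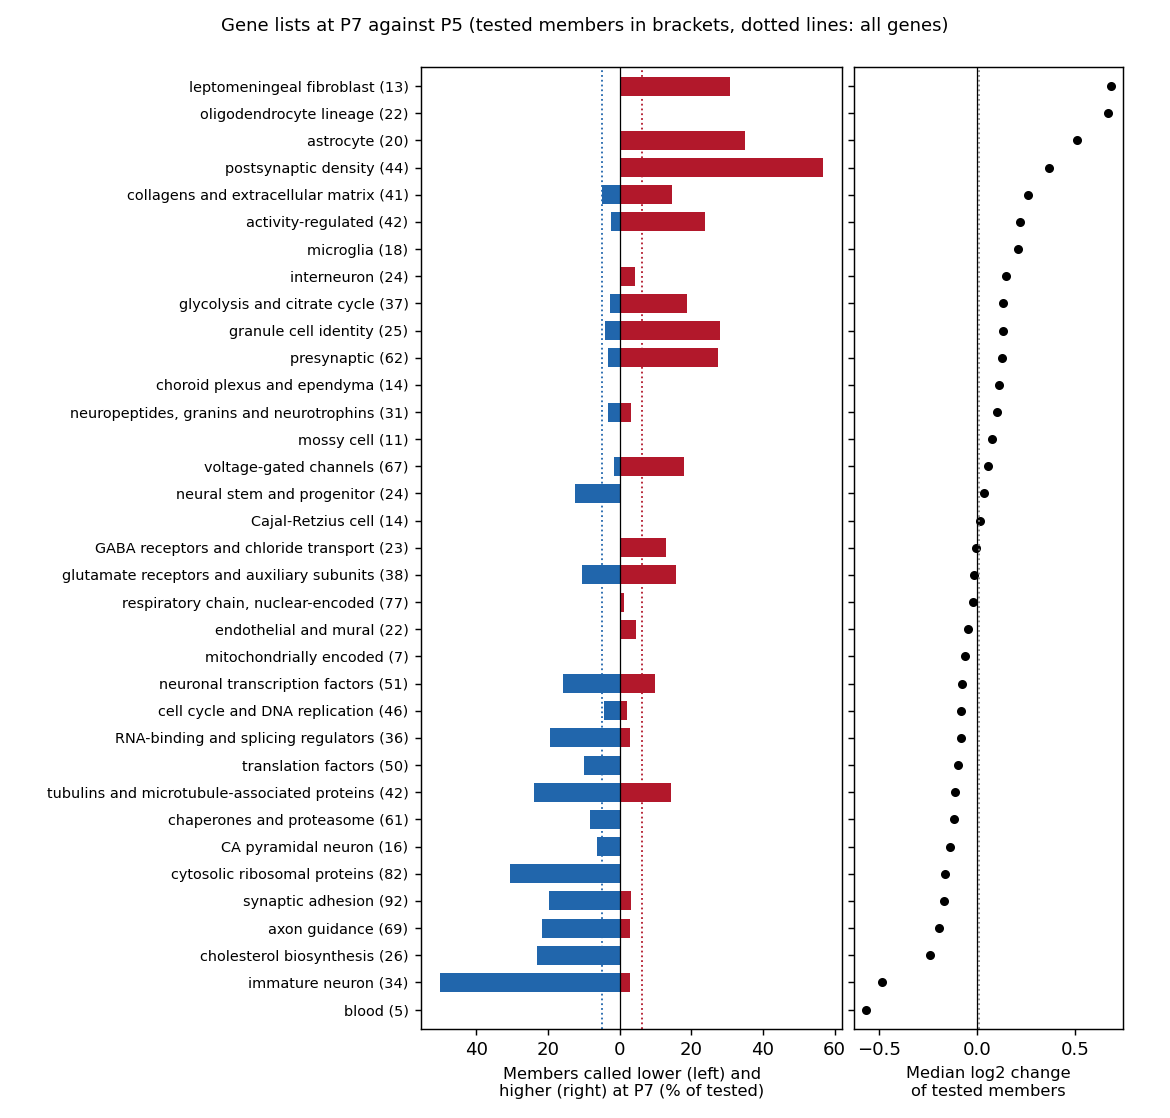
Share of tested members called higher (red, right) and lower (blue, left) at P7 in 35 gene lists, with the median log2 change of all tested members beside it. Dotted lines show all genes tested (6.15% higher, 4.89% lower, median 0.0079), and the bars extend furthest for the postsynaptic density on the right and the immature neuron on the left.

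Microtubule genes went both ways, beside 6.15% higher and 4.89% lower over all genes. Of 42 tubulins and associated proteins 6 rose and 10 fell (4 and 19 under total counts, 2 and 6 inside batch B), with a median of -0.11. Fallers included genes of growing neurites. Mapt, for tau, was at 1801, 1902 and 1974 CPM at P5 in batch A, 2023 and 1907 in batch B and 1177, 1376 and 1371 at P7 (log2 change -0.59 ± 0.072 SE, adjusted p = 1.3e-05). Map1b was at 3686, 3539 and 3227 CPM at P5 in batch A, 2874 and 3384 in batch B and 2054, 2225 and 1797 at P7 (log2 change -0.63 ± 0.089 SE, adjusted p = 7e-05). The tubulins Tuba1a, Tubb2b and Tubb5 changed by -0.71, -0.77 and -0.62, genes whose reads may be shared with near-identical copies. Risers included Nefh, the heavy neurofilament of mature axons, at 6.73, 8.74 and 9.03 CPM at P5 in batch A, 12.9 and 13.5 in batch B and 52.3, 51.7 and 32.2 at P7 (log2 change 1.77 ± 0.22 SE, adjusted p = 0.00016), the kinesin Kif1a (log2 change 0.66 ± 0.094 SE, adjusted p = 7.8e-05) and Nefl (0.47).

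Granule cell identity genes rose in part, beside 6.15% higher and 4.89% lower over all genes. Of 25 tested 7 rose and 1 fell (7 and 5 under total counts, 2 and 0 inside batch B), with a median of 0.13. Slc30a3, the zinc transporter ZnT3 of mossy fiber vesicles, was at 44.4, 40.7 and 39.6 CPM at P5 in batch A, 50.9 and 54.0 in batch B and 80.9, 69.6 and 63.0 at P7 (log2 change 0.44 ± 0.081 SE, adjusted p = 0.00095). Lct, for lactase, was at 7.37, 7.29 and 8.10 CPM at P5 in batch A, 14.1 and 15.7 in batch B and 35.0, 29.0 and 22.5 at P7 (log2 change 0.94 ± 0.14 SE, adjusted p = 0.00025). The cation channel Trpc6 rose by 0.54. The proneural factor Neurod1, which drives granule cell differentiation, was at 138, 128 and 124 CPM at P5 in batch A, 74.8 and 74.1 in batch B and 60.1, 48.6 and 66.8 at P7. It fell (log2 change -0.35 ± 0.093 SE, adjusted p = 0.017), less than it differed between the P5 batches (-0.80, adjusted p = 2.4e-05). Prox1, Calb1 and Calb2, for calretinin, did not pass (-0.19, -0.040 and -0.019), nor did Rbp4, whose regulatory DNA drives the Cre (-0.25 ± 0.23 SE, adjusted p = 0.54).

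Among 51 neuronal transcription factors 5 rose and 8 fell (2 and 17 under total counts, 2 and 3 inside batch B). Their median was -0.077, and over all genes 6.15% were higher and 4.89% lower. Klf9, induced by thyroid hormone and glucocorticoids, was at 95.9, 105 and 103 CPM at P5 in batch A, 140.2 and 149 in batch B and 236, 192 and 183 at P7 (log2 change 0.49 ± 0.086 SE, adjusted p = 0.00049). The glucocorticoid receptor Nr3c1 rose by 0.52. Bcl6, a repressor, was at 34.8, 32.6 and 30.0 CPM at P5 in batch A, 39.6 and 41.7 in batch B and 62.5, 53.0 and 44.5 at P7 (log2 change 0.39 ± 0.11 SE, adjusted p = 0.027; adjusted p = 0.062 under total counts). Tbr1, a T-box factor of young glutamatergic neurons, and Mef2c, which restrains synapse number, changed by -0.44 and -0.38. Among 36 RNA-binding and splicing regulators 1 rose and 7 fell (0 and 14 under total counts, 1 and 0 inside batch B), with a median of -0.083. Khdrbs1 changed by -0.29, Elavl3 by -0.24, Nova2 by -0.31 and Rbfox2 by -0.22 on the log2 scale.

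In the lists of protein and cholesterol synthesis every gene that passed fell, beside 4.89% lower over all genes. Of 82 cytosolic ribosomal protein genes 25 fell and none rose (0 and 56 under total counts, 0 and 4 inside batch B), with a median of -0.16. Rpl22 itself, the gene that carries the tag, was at 132, 122 and 132 CPM at P5 in batch A, 142 and 139 in batch B and 114, 110.1 and 121 at P7 (log2 change -0.28 ± 0.056 SE, adjusted p = 0.0018). Rpl39 changed by -0.54, Rpl29 by -0.34 and Rps24 by -0.32. Reads of such genes may be shared with processed pseudogenes. Of 50 translation factors 5 fell and none rose (0 and 32 under total counts, 0 and 1 inside batch B), with a median of -0.10 (Eif4a1 -0.28, Eef1e1 -0.42, Eif2s2 -0.32, Eif4g2 -0.22, Eif2s3x -0.44). Of 61 chaperone and proteasome genes 5 fell and none rose (0 and 40 under total counts, 0 and 0 inside batch B), with a median of -0.12, and 3 of the 5 were subunits of the CCT chaperonin that folds actin and tubulin (Cct2, Cct4 and Cct6a). Of 26 cholesterol synthesis genes 6 fell and none rose (0 and 12 under total counts, 0 and 4 inside batch B), with a median of -0.24. Cyp51, the sterol demethylase, was at 124, 121 and 128 CPM at P5 in batch A, 126 and 119 in batch B and 82.7, 96.5 and 85.3 at P7 (log2 change -0.48 ± 0.083 SE, adjusted p = 0.00052). Nsdhl, Acat2, Lss and Pmvk changed by -0.44, -0.55, -0.28 and -0.25.

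Genes of energy metabolism differed by list, beside 6.15% higher and 4.89% lower over all genes. Of 77 nuclear-encoded respiratory chain genes 1 rose, Cox7a2l (0.27 ± 0.062 SE, adjusted p = 0.0057; adjusted p = 0.066 under total counts), and none fell (0 and 22 under total counts, 0 and 0 inside batch B), with a median of -0.020. None of 7 mitochondrially encoded genes passed (median -0.062). Their sum was 1935 to 2083 CPM in batch A, 938 to 952 CPM at P5 in batch B and 812 to 1024 CPM at P7, so that the batches stood apart and the ages of batch B overlapped. Of 37 glycolysis and citrate cycle genes 7 rose and 1 fell (4 and 1 under total counts, 2 and 1 inside batch B), with a median of 0.13. Gpi1, glucose-6-phosphate isomerase, was at 210.4, 257 and 201 CPM at P5 in batch A, 286 and 261 in batch B and 390.4, 398 and 376 at P7 (log2 change 0.50 ± 0.075 SE, adjusted p = 0.00011). Aldoa, Pfkm and Eno2 rose by 0.41, 0.27 and 0.35. The 1 that fell was Idh1, the cytosolic isocitrate dehydrogenase that supplies NADPH (-0.88 ± 0.19 SE, adjusted p = 0.0089).

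Few genes of secreted signals passed. Of 31 neuropeptides, granins and neurotrophin genes 1 rose (Sort1, 0.22 ± 0.066 SE, adjusted p = 0.031) and 1 fell (Ntrk3, the neurotrophin-3 receptor, -0.30 ± 0.066 SE, adjusted p = 0.0043), near the background of 6.15% and 4.89%. The counts were 0 and 6 under total counts, 0 and 0 inside batch B, where Sort1 did not pass (adjusted p = 0.17 under total counts), and the median of 0.10 turned to -0.012 under total counts. Of 41 collagen and matrix genes 6 rose and 2 fell (6 and 4 under total counts, 2 and 1 inside batch B), with a median of 0.26, the 2 being Tnxb and Lama4. Hapln1, a link protein of hyaluronan nets, was at 9.67, 11.0 and 8.85 CPM at P5 in batch A, 5.78 and 6.86 in batch B and 12.1, 10.8 and 10.3 at P7 (log2 change 0.81 ± 0.16 SE, adjusted p = 0.0021), so that P7 was above batch B but overlapped with batch A. Col12a1 was at 29.1, 30.3 and 32.3 CPM at P5 in batch A, 48.3 and 52.4 in batch B and 80.2, 109 and 119.7 at P7 (log2 change 1.03 ± 0.22 SE, adjusted p = 0.0071). Col1a1 and Col1a2, the chains of fibrillar collagen I, were at 206, 154 and 196 CPM (P5, batch A), 25.8 and 33.3 (P5, batch B) and 51.1, 54.2 and 92.4 (P7) and at 179.6, 138 and 162 CPM (P5, batch A), 30.3 and 34.4 (P5, batch B) and 50.7, 60.3 and 97.1 (P7). They were called higher (1.16 and 1.11) although P7 lay below all batch A libraries; inside batch B neither passed (adjusted p = 0.21 for Col1a1), and without the batch term the change turned to -0.89 and -0.64.

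Markers of other hippocampal cells were present, and those of astrocytes moved with age. Over all genes 6.15% were higher and 4.89% lower. Of 20 astrocyte genes 7 rose and none fell (7 and 0 under total counts, 10 and 0 inside batch B), with a median of 0.51, and the list's summed level was 1409 to 1533 CPM at P5 in both batches and 1836 to 2192 CPM at P7. Slc1a2, for the glutamate transporter GLT-1, was at 311, 329 and 319 CPM at P5 in batch A, 359 and 376 in batch B and 669, 694 and 471 at P7 (log2 change 0.74 ± 0.17 SE, adjusted p = 0.012). Gfap was at 96.3, 75.0 and 65.2 CPM at P5 in batch A, 92.1 and 81.3 in batch B and 165, 155 and 172 at P7 (log2 change 0.92 ± 0.24 SE, adjusted p = 0.023). Aqp4, Ntsr2, S100b and Gjb6 rose by 0.60, 1.00, 1.31 and 1.52, while Gja1, Slc1a3 and Aldh1l1 did not pass (0.26, 0.26 and 0.32). In RNA pulled from whole hippocampus, more cells of a type and more RNA per cell cannot be told apart, and the part of astrocyte RNA in the other changes was not tested. Of 13 leptomeningeal fibroblast genes 4 rose (Col1a1, Col1a2, Slc6a20a and Slc6a13; 3 and 0 under total counts, 3 and 0 inside batch B; median 0.68), with sums of 1071 to 1228 CPM in batch A, 619 to 732 CPM at P5 in batch B and 690.0 to 881 CPM at P7.

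With all libraries, the remaining marker lists changed in at most 1 gene each, beside 6.15% higher and 4.89% lower over all genes. None of 22 oligodendrocyte lineage genes passed (median 0.66), though 5 rose inside batch B. Mobp, a myelin gene, was at or below 0.296 CPM in every P5 library and at 2.34, 2.93 and 1.71 CPM at P7, and did not pass with all libraries (adjusted p = 0.089). The myelin genes Mog and Opalin were at or below 0.266 CPM in all 8 libraries, and Pvalb, of basket cells, at or below 0.249 CPM. Of 24 interneuron genes 1 rose, Gad2 (log2 change 0.70 ± 0.14 SE, adjusted p = 0.0022; median 0.15). Of 16 CA pyramidal genes 1 fell, Nr2f1 (log2 change -0.27 ± 0.080 SE, adjusted p = 0.028; median -0.14), and of 22 endothelial and mural genes 1 rose, Vtn (log2 change 0.60 ± 0.18 SE, adjusted p = 0.034; median -0.044). Vtn did not pass relative to total counts (adjusted p = 0.065), where 5 CA pyramidal genes fell. No gene passed among 11 of mossy cells (median 0.074, turning to -0.035 under total counts), 14 of Cajal-Retzius cells (0.014, turning to -0.094, with 1 gene higher inside batch B), 18 of microglia (0.21), 14 of choroid plexus and ependyma (0.11) and 5 of blood (-0.56). Their summed levels at P7 were 418 to 519 CPM, 235 to 313 CPM, 54.6 to 55.8 CPM, 221 to 279 CPM and 18.2 to 27.3 CPM, in that order.

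The 2 P5 batches gave a measure of how far libraries of one age can differ. Between the P5 libraries of batch B and batch A 1548 genes (10.1%) passed, 1023 higher and 525 lower in batch B. This count fell to 613 with replicate 3 of batch B left out, to 772 with replicate 1 of batch B left out and to 953 with replicate 1 of batch A left out. This comparison shares the P5 libraries of batch B with that of P7 and P5, so the overlap of their calls is not given as a result. Without the batch term the comparison of 3 P7 with all 5 P5 libraries called 3586 genes, 1955 higher and 1631 lower. Shank3, Ddn, Cenpf, St8sia2, Mapt and Neo1 are picked examples of genes whose P5 levels did not pass between batches. They changed at P7 by 1.01, 0.78, -1.46, -1.29, -0.59 and -0.58. Not passing does not show equal levels, and both comparisons use the P5 libraries of batch B.

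The later course was read from libraries that the change inside batch B does not share, P10 against P5 within batch A, in which 4475 of 14443 genes were higher (31.0%) and 4465 lower (30.9%). Of 259 genes that had fallen by P7 in batch B and were tested in both, 249 (96.1%) were lower at P10 and 1 was higher, Mef2c. These 249 were 5.59% of the genes lower at P10. Of 359 that had risen, 246 (68.5%) were higher at P10, or 5.52% of the genes higher there, and 21 (5.85%) were lower. Dcx averaged 792 CPM at P5 in batch A and 99.1 at P10 (log2 change -3.00, adjusted p = 1.6e-12), and Cenpf 4847 and 298 CPM. At P28, in another batch, they averaged 16.5 and 46.3 CPM.

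At P10, in batch A, risers differed in how they stood against P5 of that batch. Camk2a averaged 3627 ± 556 CPM (SD, n = 3) at P7 and 5815 ± 468 CPM (SD, n = 3) at P10, with 1781 CPM at P5 in batch A (log2 change to P10 1.71, adjusted p = 1.1e-10). Slc30a3 went from 41.6 to 149 CPM within batch A (1.84, adjusted p = 5.8e-11), and Dgkz from 145 to 407 (1.49, adjusted p = 3.8e-10). Sptan1 was at 34693 ± 7778 CPM (SD, n = 3) at P7 and at 9748 ± 3771 CPM (SD, n = 3) at P10, still above P5 of the same batch (2.48, adjusted p = 0.0054). Its P5 mean was 1751 CPM in batch A and 6761 CPM in batch B. Set against P5 of the same batch, the log2 change was 2.35 by P7 and 2.48 by P10. Ank2 was at 11947 ± 1425 CPM at P7 and 2310.2 ± 749.6 CPM at P10 (SD, n = 3 each) and did not pass against P5 in batch A (0.59, adjusted p = 0.16). The 21 genes higher at P7 in batch B and lower at P10 in batch A included Plekha6. It was at 104 CPM at P5 and 158 at P7 in batch B, and at 68.1 at P10 in batch A. Others, named after their values were seen, were the neuron navigator Nav1 (983, 1368 and 517 CPM, in that order) and Dlg5 (162, 229.8 and 97.9 CPM). The call at P10 was made against P5 of batch A, not against the batch B levels given here. P7 and P10 are in different batches, so that a step between them was not tested here.

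**Figure D4:**
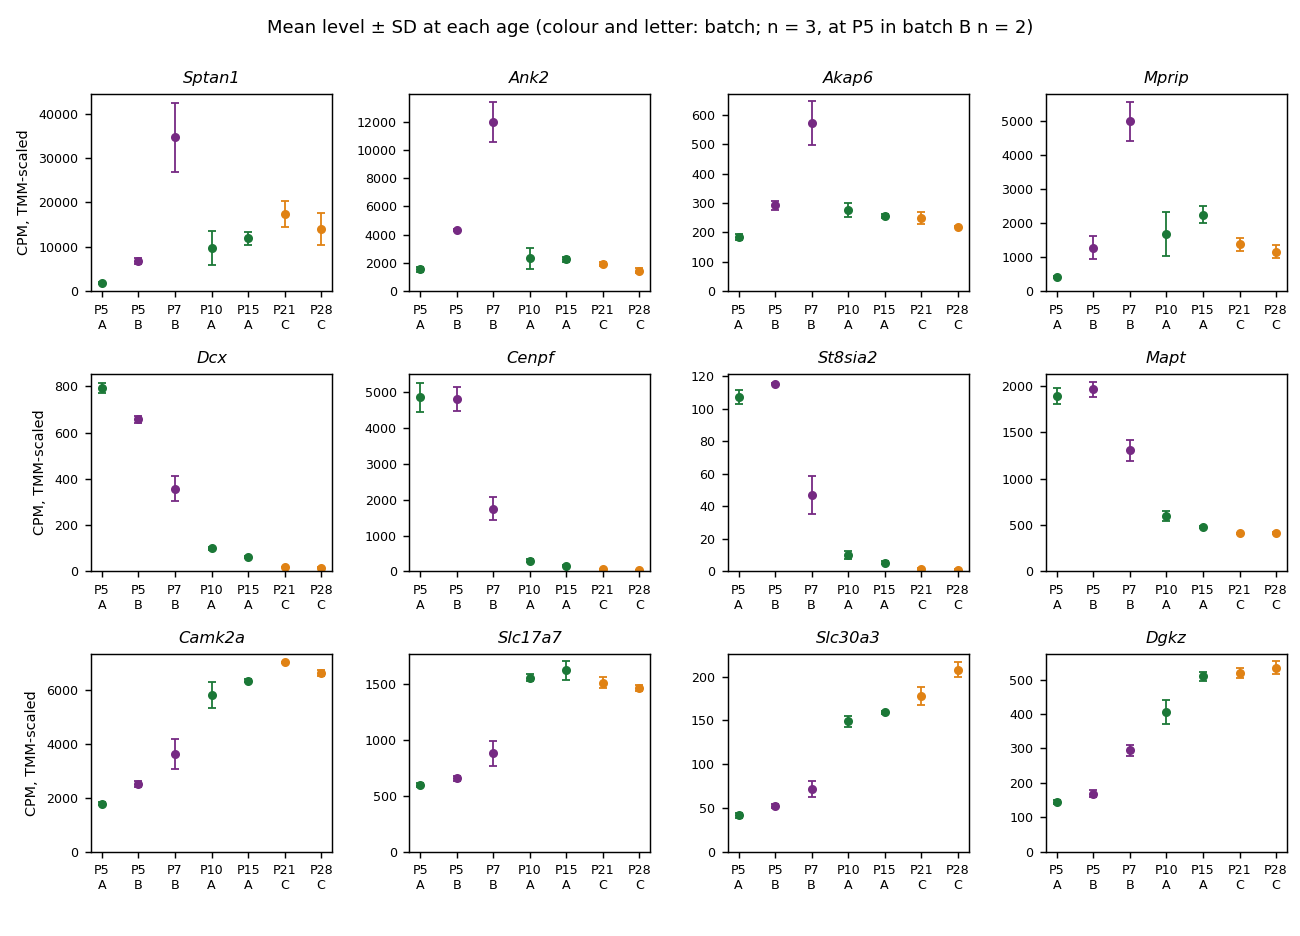
Mean level ± SD of 12 genes at each age in CPM (n = 3, at P5 in batch B n = 2), with batch shown by colour and letter. Dcx, Cenpf, St8sia2 and Mapt were lower at P7 than at P5 and lower still at P10. Camk2a, Slc17a7, Slc30a3 and Dgkz were higher at each of these ages. Sptan1, Ank2, Akap6 and Mprip had their highest mean at P7, in batch B, and the step to P10, in batch A, was not tested.

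**Figure D5:**
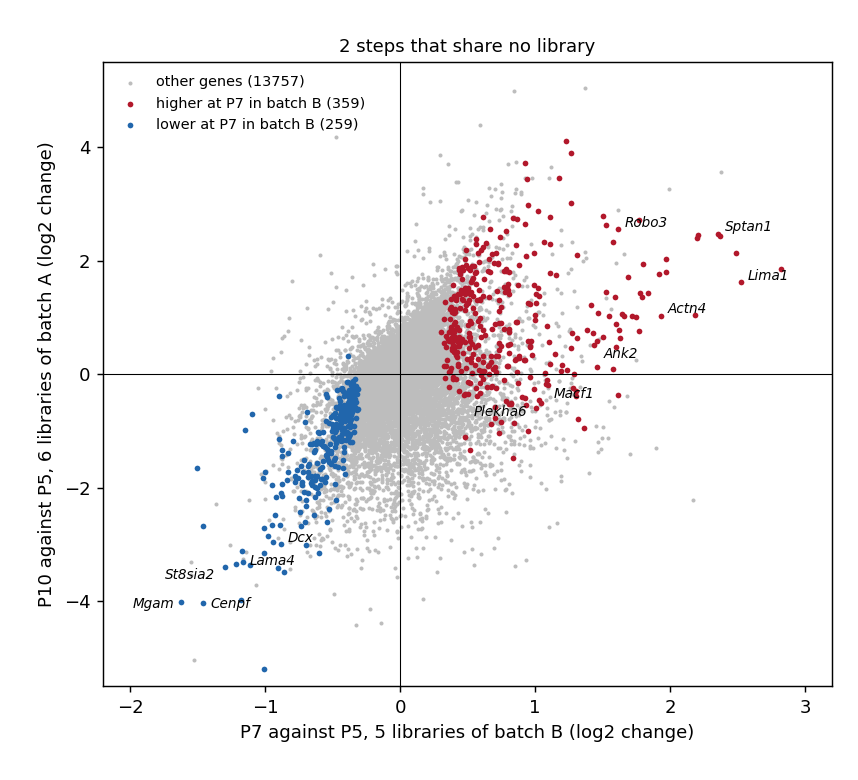
Log2 change of each gene from P5 to P7 in the 5 libraries of batch B (horizontal) against that from P5 to P10 in 6 libraries of batch A (vertical), which share no library. Genes that fell by P7 (blue) lie below 0 at P10 in nearly every case (249 of 259 called lower), whereas genes that rose (red) spread from Sptan1 and Robo3, higher at both ages, to Plekha6, lower at P10.

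From P10 to P15, both in batch A, 283 genes were higher (1.84%) and 387 lower (2.52%) of 15373 in the model of all 20 libraries, a fit other than the one within batch A above. Of the 361 genes that rose by P7 in batch B, 69 (19.1%) rose again at this step, which was 25.1% of the genes higher there, and 1 fell. Of the 260 that fell, 93 (35.8%) fell again, which was 24.1% of the genes lower there, and none rose. St8sia2 averaged 10.1 CPM at P10 and 5.30 at P15 and Draxin 5.64 and 4.51, while Dgkz averaged 407 and 509 CPM.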

How the data were processed

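The deposited table held raw counts per gene symbol for each library, with no normalization by the authors. Per the submitters' processing notes, STAR 2.7.5b, featureCounts and SAMtools 1.10 were used with the mm10 build, and per the labels' protocols the libraries came from a stranded poly-A kit. Annotation, strand setting and handling of multi-mapping reads are not given in the sources used for this text, so genes with near-identical copies or overlapping genes are uncertain. Coordinates are from GENCODE release vM21 of mm10, in which 97.5% of the symbols were found.

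Counts were tested with edgeR 4.0.16 (R 4.3.3): TMM factors, its filterByExpr filter with ages as groups (15373 genes kept), and robust quasi-likelihood fits. The model held all 20 libraries, 1 mean for each age and 1 coefficient for the offset of batch B (13 residual degrees of freedom). Benjamini-Hochberg adjustment ran over all genes, with a threshold of 0.05. Every adjusted p in the text comes from such a fit. The same test was run within batch B (P7 against P5) and within batch A (P10 against P5). Libraries of the same age differed by more than sampling noise in every pair (chi-square over its degrees of freedom 3.70 to 40.7), and each was used as 1 sample.

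Named genes are the 12 highest and 12 lowest changes among called genes with at least 5 CPM and no overlap of libraries, without predicted, pseudogene or sex-linked names, the 8 smallest p in each direction, for each list its 4 most significant members (all called ones where these are 6 or fewer) and a panel of 30 genes. The comparison, the lists and the rule were chosen with earlier results of these data known. The cytoskeletal families, Cas scaffolds and noncoding RNAs, and other genes outside the rule, were chosen after their values were seen.

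On simulated counts for P7 against P5 (15057 genes), 86% of 2-fold and 60% of 1.5-fold changes were recovered and 8.18% of 159 calls were unchanged genes. The simulated counts held no batch effect and no age effect beyond 200 planted changes, equal in number up and down. These rates therefore need not hold for the real data. Alternatives were other scalings and filters, DESeq2 1.42.0, limma-voom (limma 3.58.1), other sets of libraries, no batch term and a replicate block. A spectrin covariate and GC and length offsets were added after the data were seen. Correlations of deviations between same-numbered libraries of P5 and P7 were not all over 0.1, so the numbers were not taken as pairs. Some genes that the rule names are not reported here.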

Additional observations from a re-analysis of the deposited data

How the results depend on the processing

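Against 1698 called genes (946 higher, 752 lower, 136 of them at least 2-fold), DESeq2 size factors, no filter, a stricter filter, DESeq2 (1981 calls, with 3280 genes given no adjusted p), limma-voom and the 8 libraries alone gave counts within 1.5 times in all. Total counts gave 3035 (545 and 2490). Without the batch term 3586 genes passed (1955 and 1631, 284 at least 2-fold), and with P5 libraries of the same number summed 3031 (1489 and 1542, 257 at least 2-fold). The 5 libraries of batch B alone gave 621 (361 and 260), and 56 of 140 called named genes lost the call there. The spectrin covariate left 0 genes (0 higher, 0 lower, 0 at least 2-fold). Under it 128 of 140 called named genes lost the call and 12 turned direction, among them Lima1 (-0.37), Gsn (-0.83), Ppp1r9a (-0.20), Myh14 (-0.16), Myh11 (-0.25), Mgam (0.89), B3gnt5 (0.46), Gad2 (-0.098), Gjb6 (-0.36), S100b (-0.31) and Slc1a2 (-0.37). Col1a1 turned to -0.89 without the batch term and -0.90 with P5 libraries summed, Col1a2 to -0.64 and -0.66. Apart from the construction of these fits, the cause was not tested.

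Leaving out 1 library at a time gave 518 to 1654 genes in all, 321 to 1052 higher, 197 to 710 lower and 86 to 152 at least 2-fold. The lowest of each came without P5 replicate 1 of batch B (518, 321, 197 and 86), and without P5 replicate 3 of batch B 1020 passed (581 and 439) and without P7 replicate 1 452 were lower. Inside batch B total counts gave 1373 genes, no filter 1328 and leaving out 1 library 132 to 1069. The extremes came without P5 replicate 1 and without P7 replicate 3, with 236 without P5 replicate 3 and 256 without P7 replicate 1. The difference between P5 batches (1548 genes) ranged from 613 to 1215 with 1 library left out, and was 1697 under total counts and 2025 in the 5 P5 libraries alone. Where 1 library is left in an arm, it is assumed to vary like the others. Same-numbered libraries of P5 in batch A and P7 had correlations of deviations of -0.033, -0.036 and -0.22, the difference of replicates 1 and 3 in batch B correlated between P5 and P7 at 0.17, and a replicate block called 1474 genes (836 and 638). Depth limits low genes: the 3-count floor is 0.12 to 0.189 CPM.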

Other observations

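Giant linkers of actin and microtubules, named after their values were seen, rose with the spectrins. Macf1 was at 881, 777 and 915 CPM at P5 in batch A, 2421 and 2708 in batch B and 5217, 5973 and 5160.3 at P7 (log2 change 1.09 ± 0.23 SE, adjusted p = 0.0074), and Dst, for dystonin, at 473, 437 and 508 CPM at P5 in batch A, 1213 and 1370.1 in batch B and 3547, 3938 and 2994 at P7 (log2 change 1.44 ± 0.26 SE, adjusted p = 0.0033). In both, P7 lay above P5 without overlap, and P5 was higher in batch B than in batch A. Among the 21 genes higher at P7 inside batch B and lower at P10 in batch A were genes of glia and their precursors. Pdgfra, the receptor that marks oligodendrocyte precursors, was at 40.0, 28.5 and 30.7 CPM at P5 in batch A, 24.3 and 27.9 in batch B and 36.5, 38.0 and 37.7 at P7 (inside batch B 0.52, adjusted p = 0.011; P10 against P5 -1.34, adjusted p = 0.0014). Fgfr3, an FGF receptor of astrocytes and their progenitors, was at 35.8, 30.1 and 28.8 CPM at P5 in batch A, 22.7 and 25.8 in batch B and 31.5, 35.7 and 34.4 at P7 (inside batch B 0.48, adjusted p = 0.023; P10 against P5 -0.34, adjusted p = 0.032). The summed level of the oligodendrocyte lineage list was 221 to 330.4 CPM at P5 and 279 to 319 CPM at P7.

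Of the genes that fell most, Atp10b, a lipid flippase, was at 18.2, 15.1 and 11.5 CPM at P5 in batch A, 9.99 and 12.3 in batch B and 4.98, 4.97 and 5.17 at P7 (log2 change -1.15 ± 0.21 SE, adjusted p = 0.00094). Tes, of focal adhesions and stress fibers, was at 8.34, 11.0 and 12.0 CPM at P5 in batch A, 16.7 and 12.0 in batch B and 3.48, 6.52 and 5.61 at P7 (log2 change -1.46 ± 0.40 SE, adjusted p = 0.029). With a replicate block in the model Tes lost its call (adjusted p = 0.0805). Jpt1, expressed in growing neurons, was at 279, 256 and 278 CPM at P5 in batch A, 295 and 263 in batch B and 176, 196 and 183 at P7 (log2 change -0.60 ± 0.071 SE, adjusted p = 1.3e-05). The P7 libraries lay below all P5 libraries in each of these, which the naming rule required of Atp10b and Tes. Levels of some named genes, total counts and genes with a count, 71 measures in all, were examined across the 5 P5 libraries. In 0 of them was a library far from the others (a gap large against the range). These libraries split by batch, so where the batches differed the range was wide and a library could hardly stand out. The 3 P7 libraries were not examined this way.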
